A study of Mus musculus with 24 samples.

Results

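The microRNAs (miRNAs, small RNAs that pair with messages and hold them back) mmu-miR-199a-3p, mmu-miR-199a-5p and mmu-miR-214, written here without the species prefix, were followed in the lung of mice over 5 ages after birth. They were picked by name, as 3 names on the array whose hairpins lie in the transcript Dnm3os, with earlier results of these data known. The minor arm miR-214*, from the same transcript, is also on the array and is described beside them. They made up 3 of the 650 miRNA names on the array and were read by 6 of its 1857 probes. All of them were detected on all 24 arrays, and all were among the 322 names that were tested for differences between ages. The samples were total RNA of whole lung from C57BL/6 mice with no treatment or genetic change named, hybridised to 1-colour Agilent arrays. The groups were day 1, day 4, day 7 and day 14 after birth with 5 arrays each and day 42 with 4 arrays, each array a separate biological replicate per its label. The labels write day 14 as 2 weeks and day 42 as 6 weeks. Although the title of the study speaks of fetal lungs, every label gives an age after birth. The sex of the mice and whether animals were pooled are not given in the sources used here.

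Dnm3os is a long noncoding RNA written from the strand opposite the dynamin gene Dnm3, and it serves as the precursor of miR-199a and miR-214. In the mouse embryo it is active in mesenchyme, where the transcription factor Twist1 switches it on, and in the adult its miRNAs are known from fibroblasts and other cells of connective tissue. In mice with scarred lungs miR-199a-5p is known to be raised in fibroblasts, where it holds back the message for caveolin-1. A hairpin of a miRNA has a left (5p) and a right (3p) arm, and either can be loaded into the silencing complex and find targets mainly through its seed, the bases near its 5′ end.

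The mature sequences are shown because they decide what each probe can read. They are RefSeq's on build GRCm38.p6, with the seed (bases 2 to 8) in capitals, and 3 of 3 names were matched, miR-214 as miR-214-3p:
miR-199a-3p: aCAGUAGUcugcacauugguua
miR-199a-5p: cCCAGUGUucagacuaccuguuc
miR-214: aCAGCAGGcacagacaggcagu
miR-214*: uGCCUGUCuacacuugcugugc
miR-761: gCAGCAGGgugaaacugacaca
The 3 members have 3 different seeds. The seed of miR-214 is shared with miR-761, which was detected on 0 of 24 arrays.

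The hairpins on chromosome 1 carry both miRNAs of Dnm3os, here with the mature arms in capitals:
Mir199a-2: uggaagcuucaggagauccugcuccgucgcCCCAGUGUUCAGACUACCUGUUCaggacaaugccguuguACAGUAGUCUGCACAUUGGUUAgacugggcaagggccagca
Mir214: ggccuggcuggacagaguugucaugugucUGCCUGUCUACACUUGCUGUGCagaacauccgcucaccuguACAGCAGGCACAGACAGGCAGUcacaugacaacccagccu
Mir199a-2 lies at chr1:162217814-162217923 and Mir214 at chr1:162223368-162223477, both on the plus strand, with 5444 bases between them. Both lie within the noncoding gene Dnm3os and opposite Dnm3, which runs on the minus strand. The members differ in how many places they can come from. The miR-199a-5p sequence is also made from Mir199a-1 at chr9:21496495-21496564, on the minus strand opposite Dnm2, so it has 2 loci. The miR-199a-3p sequence has 3 loci, since the right arm of Mir199b (chr2:32318460-32318569, plus strand, opposite Dnm1) holds the same letters. Of the members, miR-214 is the one with a single locus, inside Dnm3os. The array cannot tell apart copies that share a sequence.

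The hairpin of Mir199b also holds a stretch that differs from miR-199a-5p by 1 base, C10U counted from the 5′ end of miR-199a-5p, shown with that base in capitals:
Mir199b stretch: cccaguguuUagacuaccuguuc
The array has a name for this paralogue, miR-199b*, with 2 probes of its own. The sources used here do not say which arm it reads. Near-identical miRNAs may share signal between probes.

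Between day 7 and day 14 miR-214 and miR-199a-5p passed the test for a fall, while miR-199a-3p moved by -0.30 (log2) and did not pass. The window around the start of Dnm3os is shown for that reason (chr1:162217373-162217672, plus strand, 250 bases before to 50 after the start, RefSeq, GRCm38.p6). The capitals mark its CArG box, the motif bound by serum response factor:
Dnm3os promoter: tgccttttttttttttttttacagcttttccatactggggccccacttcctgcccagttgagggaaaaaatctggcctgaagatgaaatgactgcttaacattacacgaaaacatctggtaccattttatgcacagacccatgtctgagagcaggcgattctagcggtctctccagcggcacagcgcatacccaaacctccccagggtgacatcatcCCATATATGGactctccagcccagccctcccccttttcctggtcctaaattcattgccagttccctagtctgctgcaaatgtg
The CArG box begins at base -33 from the start, and 1.63% of the 32851 RefSeq mouse promoter windows of the same length hold one on either strand. The window also holds 3 matches to the E-box CANNTG, the core read by Twist1 and many other factors, and 72.3% of the windows hold at least 1. The motifs do not overlap one another and were chosen after the window had been read.

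On the arrays, 60 spots per array read the 3 members, of which 0 to 5 were left out as outliers, and none was saturated. Values are intensities summed over the probes of a name and scaled to 1 brightness per array, taken as the 75th percentile over 228 miRNAs with detection throughout. That brightness ran from 923 to 4954 intensity units before scaling. It was under 80% of the median of its own age on 5 arrays, called dim here: day 1 numbers 4 and 5, day 4 numbers 1 and 3, and day 42 number 4. The 24 arrays lay on 3 slides of 8, each slide with all 5 ages. The number of arrays limits the precision of what follows. In whole lung, fewer cells of a type and less of a miRNA per cell cannot be told apart. Levels of different miRNAs come from different probes, so they were compared only as changes.

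All 3 members fell between day 1 and day 42 in the main setting, by unequal amounts and miR-214 by the most. With array brightness as a covariate the fall was largest for miR-199a-5p (-1.61), ahead of miR-214 (-1.07) and miR-199a-3p (-0.80). In the interval between day 7 and day 14 miR-214 and miR-199a-5p fell, each by more than miR-199a-3p moved on the same arrays. In the last interval, between day 14 and day 42, miR-199a-3p and miR-199a-5p fell. Across the 5 ages each member changed (limma F-test, adjusted p = 2.99e-05 for miR-199a-3p, 2.05e-09 for miR-199a-5p and 7.26e-06 for miR-214), as did 65.5% of all tested miRNAs. None of the members passed the limma test within the first week, where miR-214 at day 7 against day 1 had the one unadjusted value under 0.05, at 0.0119. In that week 1.55% of all tested miRNAs were called between day 4 and day 1, 0.311% between day 7 and day 4, and 15.8% between day 7 and day 1.

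**Figure D1:**
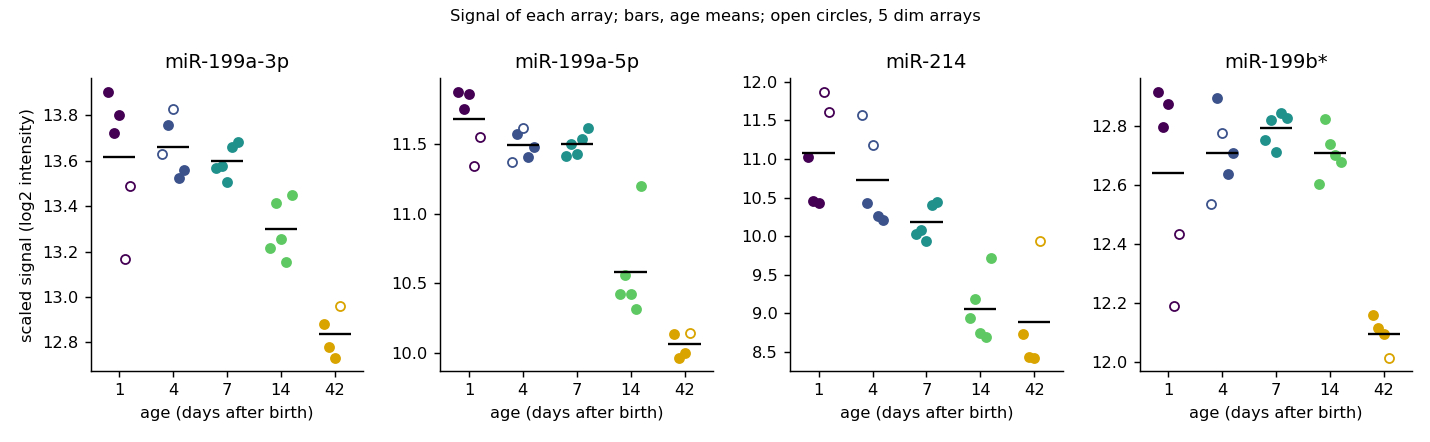
Scaled signal (log2 intensity, vertical axis, a separate scale per panel) of each array by age in days, for miR-199a-3p, miR-199a-5p, miR-214 and the paralogue name miR-199b*, with bars for age means and open circles for the 5 dim arrays. The day 42 arrays of miR-199a-3p, miR-199a-5p and miR-199b* all lie below all arrays of every earlier age, while dim arrays stand highest within their age for miR-214.

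The left arm, miR-199a-5p, did not differ by the test within the first week and had dropped by day 14. At day 1 the 5 arrays read 3762, 3457, 3724, 2605 and 3004 intensity units. At day 4 they read 2657, 3055, 3148, 2718 and 2852. At day 7 they read 2735, 2907, 2760, 2979 and 3141 units. These 3 ages overlapped, with the 2 lowest day 1 values on the dim arrays. At day 14 the arrays read 1373, 1509, 1373, 1277 and 2357 units, and at day 42 they read 1128, 1002, 1026 and 1133. Every day 14 array lay below every array of the first week, although number 5 stood well above its 4 fellows, and every day 42 array lay below every day 14 array. Such a gap was seen for 25.2% of the tested miRNAs between day 14 and day 7, for 21.7% between day 14 and day 4, for 21.4% between day 14 and day 1 and for 26.1% between day 42 and day 14.

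At day 14 miR-199a-5p averaged 10.59 ± 0.36 on the log2 scale, against 11.50 ± 0.08 at day 7 (SD, n = 5 each), a difference of -0.92 ± 0.14 (standard error, adjusted p = 2.04e-05). That is 53.0% of the day 7 level, in an interval in which 23.9% of the tested miRNAs fell and the median of all of them was -0.05. Without number 5 of day 14, the difference was -1.07. At day 42 it averaged 10.06 ± 0.09 (SD, n = 4), and fell by 0.52 ± 0.15 relative to day 14 (adjusted p = 0.00901), in an interval in which 28% of the tested miRNAs fell. This last step did not pass the test under 5 of the alternatives, 4 of them other scalings, with adjusted p between 0.0603 and 0.213. Day 42 against day 1 gave -1.61 ± 0.15 (adjusted p = 1.98e-09), or 32.6% of the day 1 level. With no scaling, the values were -0.55 for day 14 against day 7 (adjusted p = 0.190) and -0.61 for day 42 against day 1 (adjusted p = 0.0988). Its ages ran day 1, day 7, day 4, day 14 and day 42 from high to low. The neighbours day 7 and day 1 (adjusted p = 0.369) and day 7 and day 4 (adjusted p = 0.981) did not differ by the test, while day 14 differed from day 4 (-0.91, adjusted p = 1.47e-05), a comparison in which 28.3% of the tested miRNAs fell. With no scaling day 14 against day 4 gave -0.18 (adjusted p = 0.597).

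The main arm of Mir214, miR-214, had the widest spread between arrays of the members. It is known in mouse muscle cells for holding back Ezh2, a subunit of the Polycomb complex. At day 1 the arrays read 2084, 1403, 1385, 3745 and 3108 intensity units, and at day 4 they read 3047, 1382, 2326, 1223 and 1186. At day 7 they read 1044, 1086, 984, 1350 and 1394 units. The 4 highest of these 15 values were all on dim arrays, and the other arrays of the 3 ages ran between 984 and 2084. At day 14 the arrays read 492, 583, 430, 413 and 840 units, and at day 42 they read 427, 347, 345 and 985. Every day 14 array lay below every array of the first week. At day 42 the dim array, number 4, read above all 5 day 14 arrays, and the other 3 lay at the low end of the day 14 range or below it.

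At day 14 miR-214 averaged 9.06 ± 0.42 on the log2 scale, against 10.18 ± 0.23 at day 7 (SD, n = 5 each). It fell by 1.12 ± 0.33 (adjusted p = 0.00981), to 45.9% of the day 7 level. With normexp background correction this step was -0.74 (adjusted p = 0.340), with scaling over all names it was -0.76 (adjusted p = 0.0634), and a fit holding array brightness as a covariate gave -0.71 (adjusted p = 0.000352). Day 42 and day 14 differed by -0.17 ± 0.35 (adjusted p = 0.801). Without the 5 dim arrays, a choice made after seeing the data, that step was -0.52 and passed the test (adjusted p = 0.0475). Without day 14 number 5 as well it was -0.36 and did not pass (adjusted p = 0.102). Within the first week the means moved by -0.35 between day 4 and day 1 (adjusted p = 0.645) and by -0.55 between day 7 and day 4 (adjusted p = 0.682). Day 7 against day 1 gave -0.90 (adjusted p = 0.0651), and it passed the test with quantile normalization (adjusted p = 0.0371), in the authors' deposited table (adjusted p = 0.0412) and without any 1 of day 1 number 2, day 1 number 3, day 4 number 1 and day 42 number 4 (adjusted p between 0.0257 and 0.0498). A fit holding array brightness as a covariate gave -0.0947 (adjusted p = 0.755), and the difference was -0.46 without the 5 dim arrays (adjusted p = 0.141). From high to low the ages kept the order of time, and of the neighbours in it only day 14 and day 7 differed by the test.

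Day 42 against day 1 gave -2.19 ± 0.35 for miR-214 (adjusted p = 9.67e-06), or 21.9% of the day 1 level, with all 4 day 42 arrays below all 5 day 1 arrays. In that comparison 42.9% of the tested miRNAs fell, and 26.4% had all day 42 arrays below all day 1 arrays. The size depended on how array brightness was handled: it was -1.07 with brightness as a covariate (adjusted p = 3.09e-05), -1.19 with no scaling and -2.10 without the 5 dim arrays.

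The right arm, miR-199a-3p, changed least. It is known in human liver cancer cells for lowering the messages of the kinase mTOR and the receptor MET. At day 1 the arrays read 15331, 13512, 14268, 9214 and 11504 intensity units. At day 4 they read 12666, 13851, 14528, 11792 and 12078, and at day 7 they read 12136, 12223, 11640, 12948 and 13148. The 3 ages overlapped, and the 2 lowest values of day 1 were again its dim arrays. At day 14 the arrays read 9520, 10904, 9788, 9119 and 11176 units, and at day 42 they read 7533, 7029, 6811 and 7981. All day 14 arrays lay below all day 7 arrays, and all day 42 arrays lay below those of every other age, which held for 35.7% of the tested miRNAs against day 7 and for 32% against day 4.

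At day 14 miR-199a-3p averaged 13.30 ± 0.13 on the log2 scale, against 13.60 ± 0.07 at day 7 (SD, n = 5 each), and the difference of -0.30 ± 0.12 did not pass the test (adjusted p = 0.0660). It passed without day 14 number 5 (-0.34, adjusted p = 0.0438), without day 1 number 4 (adjusted p = 0.0215) and without the 5 dim arrays (adjusted p = 0.00376). It also passed with quantile normalization (-0.41, adjusted p = 0.00179) and in the authors' deposited table (-0.36, adjusted p = 0.0146). The same held with brightness as a covariate (-0.31, adjusted p = 0.0370) and with the dimmest probe (-0.34, adjusted p = 0.0199). Its direction turned with scaling over all names (0.0617) and with no scaling (0.0686). At day 42 it averaged 12.84 ± 0.10 (SD, n = 4) and fell by 0.46 ± 0.13 relative to day 14 (adjusted p = 0.00800). This step did not pass the test with scaling over all names, median scaling, no scaling or normexp, with adjusted p between 0.0853 and 0.273. Against day 1 it fell by 0.78 ± 0.13 (adjusted p = 1.78e-05), to 58.3% of the day 1 level. From high to low the ages ran day 4, day 1, day 7, day 14 and day 42, and the first 3 did not differ by the test (adjusted p = 0.866 for day 4 against day 1 and 0.922 for day 7 against day 1). Day 14 differed by the test from day 4 (-0.36, adjusted p = 0.0220), a comparison in which 28.3% of the tested miRNAs fell. It also differed from day 1 (-0.32, adjusted p = 0.0311). Of 42 alternatives, 10 lost that call against day 1 and 2 turned its direction.

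**Figure D2:**
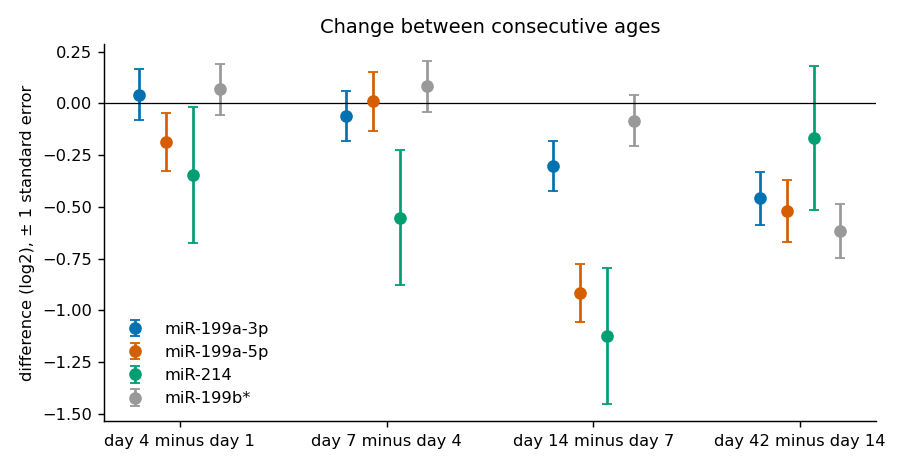
Difference between consecutive ages, later minus earlier (log2, vertical axis), for each of the 4 steps, with bars of 1 standard error from the limma model. Between day 14 and day 7 miR-199a-5p (-0.92) and miR-214 (-1.12) lie far below 0 while miR-199b* (-0.08) lies near it, and between day 42 and day 14 miR-199b* is the lowest at -0.62.

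The scaling sets where 0 lies, and it moved the middle of all miRNAs. The median difference of the 322 tested miRNAs between day 42 and day 1 was -0.35, with 61 higher and 138 lower calls. It was 0.30 with scaling over all names (125 higher, 78 lower), 0.01 with median scaling (96 higher, 91 lower), 0.21 with quantile normalization (123 higher, 92 lower), 0.64 with no scaling (145 higher, 58 lower) and 0.31 in the authors' deposited table (133 higher, 88 lower). Day 42 against day 1 of miR-199a-3p was -0.12 with scaling over all names (adjusted p = 0.249) and 0.23 with no scaling (adjusted p = 0.532), so its direction turned with no scaling. Relative to the median of all miRNAs in the same setting, miR-199a-3p lay lower at day 42 in each of the 6 settings, by -1.36 to -0.41. On the same footing miR-199a-5p lay between -1.90 and -1.25 and miR-214 between -2.27 and -1.82. Between day 14 and day 7 the ranges were -0.50 to -0.25 for miR-199a-3p, -1.18 to -0.86 for miR-199a-5p and -1.26 to -1.07 for miR-214. The main setting, scaling over all names, median scaling and no scaling differ only by a factor per array. Taking the median of all miRNAs off removes that factor, so these settings had to give nearly the same relative values and are not separate checks.

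**Figure D3:**
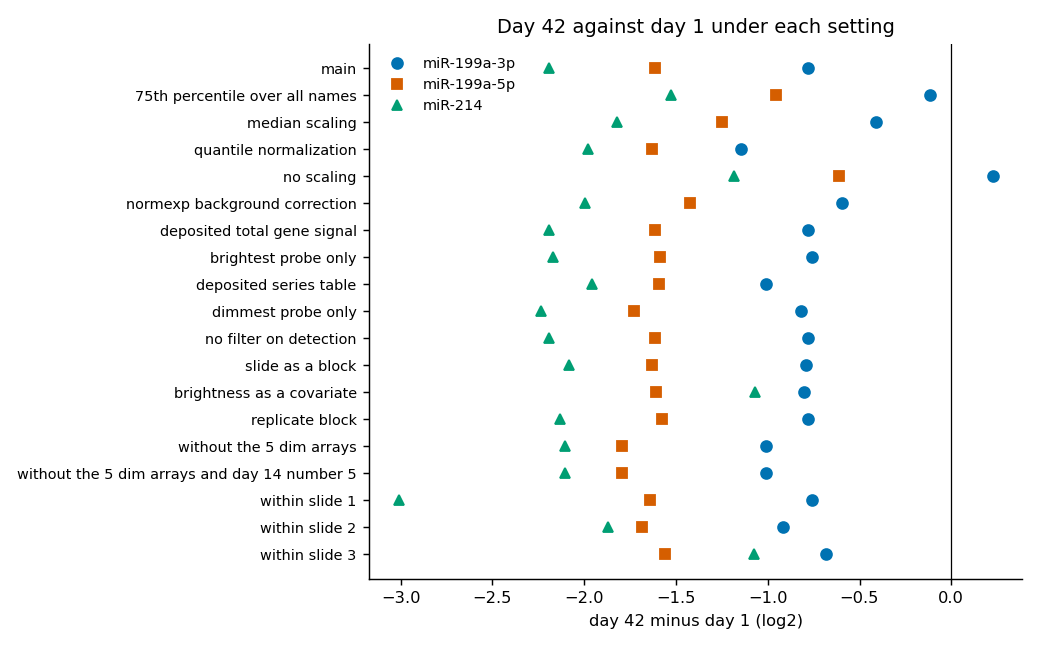
Day 42 minus day 1 (log2, horizontal axis) of the 3 members under the main setting and 18 alternatives, 1 row each. miR-214 and miR-199a-5p lie below 0 in every row, and miR-199a-3p crosses 0 with no scaling, at 0.23.

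All 3 members were lower at day 42 within each slide. Within slide 1, slide 2 and slide 3, day 42 against day 1 gave -0.76, -0.92 and -0.68 for miR-199a-3p. The same values were -1.64, -1.68 and -1.56 for miR-199a-5p and -3.01, -1.87 and -1.08 for miR-214. The day 1 arrays of slide 1 include a dim one, and the single day 42 array of slide 3 is the dim one. Their part in the wide range of miR-214 was not tested. For day 14 against day 7 the within-slide values were -1.11, -1.002 and -0.62 for miR-199a-5p, -1.40, -1.08 and -0.71 for miR-214, and -0.43, -0.22 and -0.15 for miR-199a-3p. With the slide as a block, day 42 against day 1 was -0.79 for miR-199a-3p, -1.63 for miR-199a-5p and -2.08 for miR-214.

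Both probes of each member gave like falls. Between day 42 and day 1 they moved by -0.82 and -0.76 for miR-199a-3p, by -1.59 and -1.73 for miR-199a-5p, and by -2.24 and -2.17 for miR-214. The wide spread of miR-214 at day 1 was seen on both, with an SD of 0.63 on one probe and 0.67 on the other (log2, n = 5).

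Before scaling, miR-214 hardly varied with the brightness of the array. In 1 within-age slope pooled over all ages, its log2 signal before scaling changed by -0.11 per doubling of brightness. That was the lowest slope of the 228 miRNAs detected on all arrays, whose median was 0.68, and single ages can differ from it. The slopes of miR-199a-3p and miR-199a-5p were 1.02 and 0.99. The pooled within-age SD of miR-214 was 0.55 after scaling and 0.22 before it, the other way round from miR-199a-3p (0.17 and 0.49) and miR-199a-5p (0.21 and 0.49). Scaling thus lowered the spread of the miR-199a arms and raised that of miR-214. Before scaling, miR-214 read between 9.21 and 9.92 at day 14 (log2 intensity), against 10.18 to 10.40 at day 7, with no overlap, although the day 14 arrays were brighter on average (3239 against 2418 units). A fit of the scaled values with brightness as a covariate beside age gave, for miR-214, 0.0623 for day 4 against day 1. It gave -0.0947 for day 7 and -1.07 for day 42 against day 1. Mean brightness itself differed between ages (1539 units at day 1 and 3104 at day 42), and the cause was not tested.

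**Figure D4:**
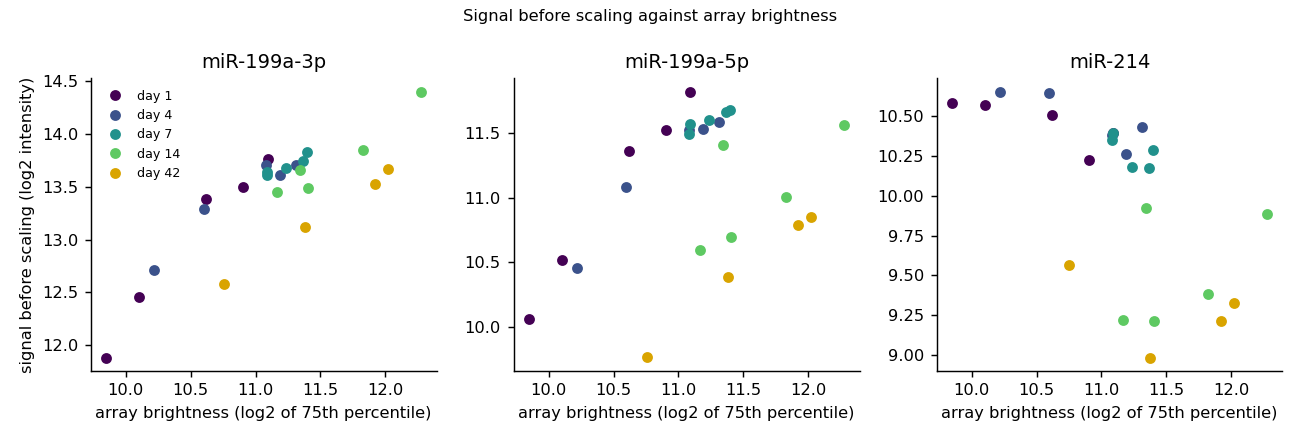
Signal before scaling (log2 intensity, vertical axis, a separate scale per panel) of the 3 members on each of the 24 arrays against the brightness of the array (log2 of the 75th percentile, horizontal axis), coloured by age. In a within-age slope pooled over all ages the signal of both miR-199a arms climbs with brightness and that of miR-214 does not (1.02, 0.99 and -0.11). Single ages can differ from these pooled slopes.

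Ratios of 2 members on the same array do not depend on the factor an array is divided by, and they show whether the signals of the members changed by unequal amounts. They can still vary with brightness where the 2 signals follow it unequally. The slopes on brightness were -0.11 for miR-214, against 1.02 and 0.99 for the arms of miR-199a. Over 3 pairs of members and 6 pairs of ages, 18 exact permutation tests were run, two-sided, with p-values adjusted over the 18. The smallest raw p they can give is 0.00794 for 5 against 5 arrays and 0.0159 for 4 against 5. Leaving arrays out raises it, to 0.0357 for 3 against 5 and 0.1 for 3 against 3. A call lost that way does not by itself show a smaller difference.

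The 2 arms of miR-199a changed unequally. The log2 ratio of miR-199a-5p over miR-199a-3p was -2.71 ± 0.26 at day 14, against -2.10 ± 0.04 at day 7 (SD, n = 5 each), with every day 14 array below every day 7 array (difference -0.62, exact permutation test, adjusted p = 0.0286). At day 42 it was -2.77 ± 0.05 (SD, n = 4), against -1.94 ± 0.07 at day 1 (SD, n = 5), again with no overlap (difference -0.84, exact permutation test, adjusted p = 0.0408). Leaving out any 1 array of day 42 or day 1 took the adjusted p of that comparison to between 0.0735 and 0.0918, with differences of -0.86 to -0.81. The ranges still did not overlap there, so the raw p was the smallest that fewer arrays allow. Day 42 and day 14 differed by -0.06 (exact permutation test, adjusted p = 0.952). A smaller step separated day 4 from day 1, at -0.23 (exact permutation test, adjusted p = 0.0286), which was -0.0804 in the authors' deposited table (adjusted p = 0.418). Without the dim arrays it was -0.15 with no overlap (adjusted p = 0.200), where 3 against 3 arrays could not pass the test. Without day 1 number 1, 2, 4 or 5 the adjusted p of this step was 0.0571, with differences of -0.25 to -0.20 and still no overlap. On dim arrays the ratio was -1.82 on day 1 number 4, the highest of its age, -2.25 on day 4 number 1 and -2.82 on day 42 number 4, the lowest of theirs.

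Against miR-199a-3p, miR-214 also fell more in the main setting. Its log2 ratio was -4.24 ± 0.31 at day 14, against -3.42 ± 0.16 at day 7 (SD, n = 5 each), with no overlap (difference -0.82, exact permutation test, adjusted p = 0.0286). With normexp background correction that difference was -0.39 (adjusted p = 0.286). Day 42 against day 1 gave -1.41, with overlapping ranges (exact permutation test, raw p = 0.0476, adjusted p = 0.107). It ranged from -4.34 to -3.02 at day 42 and from -3.37 to -1.30 at day 1, and the highest value of each age was on a dim array. In the limma fit with brightness as a covariate, day 14 against day 7 gave -0.71 for miR-214 and -0.31 for miR-199a-3p. For day 42 against day 1 that fit gave -1.07 and -0.80. The part of brightness in this ratio was not tested.

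The ratio of miR-214 to miR-199a-5p, the pair that fell in the same interval, was -1.53 ± 0.12 at day 14, against -1.32 ± 0.16 at day 7 (SD, n = 5 each), a difference of -0.21 (exact permutation test, adjusted p = 0.119). At day 42 it was -1.18 ± 0.65 (SD, n = 4), against -0.60 ± 0.86 at day 1 (SD, n = 5), a difference of -0.57 (exact permutation test, adjusted p = 0.374). Without the 5 dim arrays its means in order of age were -1.19 (day 1), -1.19 (day 4), -1.32 (day 7), -1.53 (day 14) and -1.50 (day 42). Day 14 against day 1 gave -0.93 with all arrays (exact permutation test, adjusted p = 0.0408) and -0.34 without the dim ones (exact permutation test, adjusted p = 0.200). With 1 array of either age left out it ranged from -1.13 to -0.65, with an adjusted p of up to 0.0816.

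**Figure D5:**
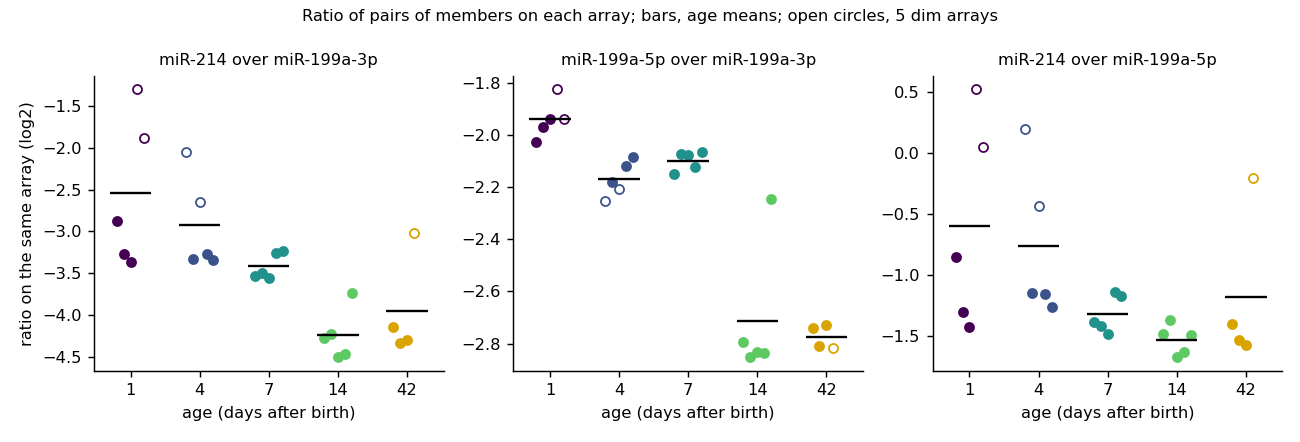
Log2 ratio of each pair of members on the same array (vertical axis, a separate scale per panel) by age in days, with bars for age means and open circles for the 5 dim arrays. The ratio of miR-199a-5p to miR-199a-3p steps down between day 7 and day 14, where 4 of 5 day 14 arrays lie at or below -2.79 and number 5 at -2.25, and in both ratios of miR-214 the open circles stand above the other arrays of their age in every case.

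The paralogue name miR-199b* took another course from miR-199a-5p. At day 14 its arrays read between 6219 and 7250 intensity units, against 6719 to 7362 at day 7, with overlap. The difference was -0.08 ± 0.12 (adjusted p = 0.693). At day 42 its arrays read 4568, 4438, 4366 and 4135 units, below all arrays of the other ages, and it fell by 0.62 ± 0.13 relative to day 14 (adjusted p = 0.000715). Day 42 against day 1 gave -0.55 ± 0.13 (adjusted p = 0.000846), a direction that turned with scaling over all names (0.11) and with no scaling (0.46). With median scaling it was -0.18 (adjusted p = 0.178), and the step against day 14 lost its call with no scaling (adjusted p = 0.194). On the same arrays the log2 ratio of miR-199a-5p to miR-199b* averaged -2.12 at day 14 and -1.29 at day 7, a step of -0.83. The ratio of miR-199a-3p to miR-199b* averaged 0.59 at day 14 and 0.81 at day 7, a step of -0.22. These ratios were chosen after the values had been seen and were not tested.

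The other arm of Mir214, miR-214*, is dim, and only 1 of its 4 probes read above the floor of the scale at most ages. Its arrays read between 18.2 and 40.5 intensity units at day 14, against 35.9 to 55.4 at day 7, with the highest day 14 value on number 5 and an overlap through that array. It fell by 0.95 ± 0.23 (adjusted p = 0.00249). At day 42 it was detected on 3 of 4 arrays, which read 5.79, 6.23 and 12.97 units beside 8.39 on the array without detection, and 2 of these lie under the floor of 7.24. Day 42 against day 1 gave -2.58 ± 0.24 (adjusted p = 2.94e-09), with those 2 arrays set to the floor. Both arms of Mir214 fell between day 7 and day 14. The miR-214* step turned to 0.34 with normexp background correction (adjusted p = 0.696).

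Among the 228 miRNAs detected on all arrays, the course of each member was set beside the other 227 by the SD over the 24 arrays of their log2 ratio, where a small SD means a like course. The nearest to miR-199a-3p were miR-340-3p (0.134), miR-130a (0.144), miR-466a-3p (0.149) and miR-500 (0.150). miR-199b* was its 10th, at 0.172, and its own other arm miR-199a-5p the 52nd, at 0.362. The nearest to miR-199a-5p were miR-17* (0.186), miR-322 (0.223), miR-17 (0.239) and miR-181d (0.293). For miR-214 they were miR-455 (0.342), miR-130b (0.396), miR-106b* (0.430) and miR-322* (0.432). miR-199a-5p, from the same transcript, ranked 26th for miR-214, at 0.623. On the 19 arrays left without the dim ones, miR-199a-5p ranked first for miR-214, at 0.204, and miR-214 ranked 3rd for miR-199a-5p. These orders share the arrays and the scaling, and they changed in the authors' deposited table, where miR-340-3p was 91st for miR-199a-3p (0.608).

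Markers of the cell types in the lung did not fall with the members as lists. Of 5 tested miRNAs of mesenchyme and smooth muscle, 2 rose between day 42 and day 1, 0 fell and 3 did not pass the test. Among all tested miRNAs 18.9% rose and 42.9% fell. The median of the list was 0.53, beside -0.35 over all miRNAs. The count that rose was 1 without day 42 number 1, without day 42 number 4, with normexp (where 1 fell), with the dimmest probe and with no filter on detection. It was 4 with scaling over all names and with median scaling, and 5 with no scaling. In the main setting the 2 were miR-10a (0.88, adjusted p = 0.000583) and miR-10b (0.53, adjusted p = 0.0322). The smooth muscle miRNAs miR-143 and miR-145 moved by 0.03 (adjusted p = 0.871) and by 0.00058 (adjusted p = 0.999). Between day 42 and day 14 miR-143 fell by 0.48 (adjusted p = 0.0270), while miR-10a (0.58, adjusted p = 0.0275) and miR-10b (0.57, adjusted p = 0.0400) rose. Between day 14 and day 7, where miR-199a-5p and miR-214 fell, none of the 5 passed the limma test, and their lowest unadjusted p was 0.356. The summed signal of the list ran from 12.88 to 13.57 at day 42 (log2), against 12.62 to 12.94 at day 1. These lists carry no marker that is made by fibroblasts alone, so the label of fibroblast miRNAs rests on background knowledge.

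Other cell types changed over the same ages, in a comparison in which 61 of the 322 tested miRNAs (18.9%) rose. Of 8 leukocyte miRNAs 7 rose between day 42 and day 1 (median 1.55), as did 3 of 4 of endothelium (median 0.77), and for epithelium 1 of 6 rose, 1 fell and 4 did not pass the test (median 0.14). Among them miR-142-3p of leukocytes rose by 1.87 (adjusted p = 0.0105) and miR-126-3p of endothelium by 0.79 (adjusted p = 2.86e-05). Of 3 miRNAs of red cells none passed the limma test (median 0.44, lowest unadjusted p 0.0985), and of 4 of striated muscle 1 fell (median 0.43). The counts that rose depended on single arrays and on scaling: that of epithelium was 0 without day 1 number 4, day 1 number 5 or day 42 number 3 and up to 4 with no scaling. That of red cells was 1 without day 1 number 2 or day 42 number 3 and up to 2 with other scalings. That of striated muscle was 3 without day 1 number 2, and that of endothelium was 1 with normexp. Of the leukocyte miRNAs 1 fell without the 5 dim arrays, and of striated muscle none fell with no scaling or with scaling over all names. The summed signal of the leukocyte list ran from 13.84 to 14.14 at day 42 (log2), against 12.99 to 13.36 at day 1, with no overlap. That of endothelium ran from 15.95 to 16.39 at day 42, against 15.02 to 15.62 at day 1, and that of epithelium from 13.83 to 14.03 at day 42, against 13.60 to 13.96 at day 1. The part of these shifts in the falls of miR-199a and miR-214 was not tested.

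Of 12 miRNAs linked to lung fibrosis in mice or people, 6 rose between day 42 and day 1, 2 fell and 4 did not pass the test, with a median of 0.49. Among all tested miRNAs 18.9% rose and 42.9% fell. Of the 12, 10 rose with scaling over all names, and 1 fell with no scaling and in the authors' deposited table. The collagen-repressing miR-29a rose by 3.82 ± 0.24, as did miR-29b (4.02 ± 0.66) and miR-29c (4.00 ± 0.34) of the same family. The others that rose were miR-155 (1.80 ± 0.22), miR-26a (0.68 ± 0.13) and miR-31 (0.73 ± 0.13). miR-21, which is raised in scarred lung, moved by 0.31 ± 0.33 (adjusted p = 0.429). Those that fell were miR-154 (-3.38 ± 0.20), of the imprinted Dlk1-Dio3 region, and miR-17 (-1.25 ± 0.14), of a growth-promoting cluster. The fall of miR-199a-5p, at -1.61, lay between these 2.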

How the data were processed

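The authors extracted the arrays in Agilent Feature Extraction 10.7.1.1, per the file headers and the submitters' processing notes, and the deposited array files hold processed spot intensity, background-subtracted per spot and not adjusted between arrays. Per the labels' protocols, 100 ng of total RNA was labelled with Cy3. The deposited series table holds log2 values for 672 names with 1 median of 2.41 in every column, and its normalization is not given in the sources used here. It served as an alternative.

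Spots marked as outliers (319 to 523 per array) were left out, spots averaged per probe and probes summed per name. Each array was divided by its 75th percentile over the 228 miRNAs with the deposited detection flag on all arrays, times 1 common factor. Values under a floor of 7.24 were set to it and log2 was taken (2.86 at the floor). The test took in 322 miRNAs, those with detection throughout at least 1 age, fitted in 1 limma 3.58.1 model (R 4.3.3) over 24 arrays with 5 ages, 19 residual degrees of freedom and Benjamini-Hochberg adjustment over the 322 per comparison. The threshold was an adjusted p of 0.05. Errors after ± are standard errors of that model unless SD is named. In data simulated for 322 miRNAs the model was tested for recovery of known changes. The simulated noise was drawn separately for each miRNA and array, so that check does not cover errors that follow array brightness. Ratios were tested with exact permutation tests (scipy 1.17.1, Python 3.11.15).

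The members, the lists and the alternatives were chosen with earlier results of these data known. The rule for other miRNAs named was the 4 with the smallest SD of the ratio to a member, and the members of the fixed lists. Replicate numbers were not taken as pairs: of 46 pairs of arrays with the same number, 18 deviated together with a correlation above 0.1, and the median was -0.02. Normexp (offset 50) used the median spot signal in place of the mean.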

Additional observations from a re-analysis of the deposited data

Results flagged for a closer look

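Of 30 groups of 4 or 5 arrays (levels and ratios of the members at each age), 4 held an array set far from the others by Dixon's test at the 95% level. Chance alone flags about 1 group in 20. The ratios are formed from the levels on the same arrays, so the groups are not independent and the 4 are not separate signs. Day 14 number 5 was highest for miR-199a-5p, at 11.20 on the log2 scale, and for the log2 ratio of miR-199a-5p to miR-199a-3p, at -2.25. Day 42 number 4, a dim array, was highest for the log2 ratio of miR-214 to miR-199a-3p, at -3.02, and for that of miR-214 to miR-199a-5p, at -0.20.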

How the results depend on the processing

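Falls of miR-214 and miR-199a-5p between day 42 and day 1 kept their direction under all 42 alternatives. Some of the changes of single members that turned, moved or crossed the threshold are given here, against the main setting, and the cause was not tested. With no scaling the values were: for miR-199a-3p 0.29 (day 7 minus day 4), 0.0686 (day 14 minus day 7), -0.54 (day 42 minus day 14), 0.70 (day 7 minus day 1), 0.77 (day 14 minus day 1, passing the test the other way, adjusted p = 0.0251) and 0.23 (day 42 minus day 1), for miR-199a-5p 0.18 (day 4 minus day 1), -0.18 (day 14 minus day 4), -0.00372 (day 14 minus day 1, adjusted p = 0.990), -0.55 (day 14 minus day 7), -0.61 (day 42 minus day 14), 0.54 (day 7 minus day 1) and -0.61 (day 42 minus day 1), for miR-214 0.0203 (day 4 minus day 1), for miR-199b* 0.29 (day 14 minus day 7) and 0.46 (day 42 minus day 1), and for miR-214* -0.58 (day 14 minus day 7). With scaling over all names they were, for miR-199a-3p, 0.0617 (day 14 minus day 7), 0.0607 (day 14 minus day 1), -0.18 (day 42 minus day 14) and -0.12 (day 42 minus day 1), for miR-199a-5p -0.00717 (day 7 minus day 4) and -0.24 (day 42 minus day 14), for miR-214 -0.76 (day 14 minus day 7) and 0.11 (day 42 minus day 14), and for miR-199b* 0.28 (day 14 minus day 7, adjusted p = 0.0383) and 0.11 (day 42 minus day 1). With median scaling they were -0.22 (miR-199a-3p) and -0.28 (miR-199a-5p) for day 42 minus day 14, -0.0421 (miR-199a-5p, day 7 minus day 4), 0.0683 (miR-214, day 42 minus day 14) and 0.0756 (miR-199b*, day 14 minus day 7). With quantile normalization they were -0.22 (day 4 minus day 1) and -0.41 (day 14 minus day 7) for miR-199a-3p, -0.40 and 0.13 for miR-199a-5p and miR-214 (day 42 minus day 14), and -0.57 for miR-214* (day 14 minus day 7). The deposited series table gave -0.12 (day 4 minus day 1) and -0.36 (day 14 minus day 7) for miR-199a-3p, 0.10 for miR-214 (day 42 minus day 14) and -0.66 for miR-214* (day 14 minus day 7), and for ratios over miR-199a-3p between day 42 and day 14 it gave 0.62 (miR-214) and 0.10 (miR-199a-5p). Normexp gave -0.40 and -0.54 for miR-199a-3p and miR-199a-5p (day 42 minus day 14), 0.16 for miR-199a-3p (day 7 minus day 1), -0.74 for miR-214 (day 14 minus day 7), 0.34 and -0.82 for miR-214* (day 14 minus day 7, day 42 minus day 14), and ratios of -0.39 (miR-214 over miR-199a-3p) and 0.0628 (miR-214 over miR-199a-5p) for day 14 minus day 7 and -0.83 (miR-199a-5p over miR-199a-3p) for day 42 minus day 1. With brightness as a covariate miR-199a-3p gave -0.31 (day 14 minus day 7) and miR-214 0.0623 (day 4 minus day 1), and the dimmest probe, chosen after seeing the data, gave -0.34 for miR-199a-3p (day 14 minus day 7). Without the 5 dim arrays, also chosen after seeing the data, miR-199a-3p gave -0.19 (day 4 minus day 1) and -0.30 (day 14 minus day 7), or -0.34 also without day 14 number 5. For miR-214 the value without the 5 dim arrays was -0.52 (day 42 minus day 14), or -0.36 also without day 14 number 5. Of the ratios without the 5 dim arrays, miR-214 over miR-199a-3p was -0.82 (day 14 minus day 7) and -0.0198 (day 42 minus day 14), miR-199a-5p over miR-199a-3p -0.62 (day 14 minus day 7) and -0.78 (day 42 minus day 1), and miR-214 over miR-199a-5p 0.00595 (day 4 minus day 1). Day 14 minus day 1 of miR-199a-3p lost its call with median scaling and with normexp (-0.19 each), the brightest probe (-0.29) and brightness as a covariate (-0.34). Within single slides the values that moved included, for miR-214, -1.36 (day 7 minus day 4, slide 1), -0.19 (day 7 minus day 1, slide 2) and -1.27 (day 14 minus day 1, slide 2), for miR-199b* in slide 2 -0.000989 (day 14 minus day 7) and -0.70 (day 42 minus day 14), and further -0.15 (miR-199a-3p, slide 3) and -0.36 (miR-214*, slide 3) for day 14 minus day 7, -0.61 (miR-199a-3p, slide 2) and 0.71 (miR-214, slide 3) for day 42 minus day 14, and -3.01 and -1.08 (miR-214, slides 1 and 3) for day 42 minus day 1. The F-test of miR-199a-3p had an adjusted p of 0.276 with scaling over all names and 0.114 with no scaling. With the replicate number as a block no call of a member changed (miR-214 day 42 minus day 1 was -2.13). For ratios, pairing by number gave -0.82 and -0.62 for miR-214 and miR-199a-5p over miR-199a-3p (day 14 minus day 7), and 0.0547 (day 42 minus day 14) and -0.84 (day 42 minus day 1) for miR-199a-5p over miR-199a-3p, all with an adjusted p of 0.188, a design too small to pass. Leaving out each replicate in turn, miR-199a-3p ranged from -0.0694 to 0.11 (day 4 minus day 1), -0.34 to -0.27 (day 14 minus day 7) and -0.13 to 0.0534 (day 7 minus day 1), miR-199a-5p from -0.0186 to 0.0425 (day 7 minus day 4), miR-214 over miR-199a-3p from -0.0198 to 0.42 (day 42 minus day 14), miR-199a-5p over miR-199a-3p from -0.0972 to 0.0547 (day 42 minus day 14) and -0.86 to -0.81 (day 42 minus day 1, no longer past the threshold in any of 9), and miR-214 over miR-199a-5p from -0.40 to 0.12 (day 4 minus day 1). For ratios, fewer arrays also raise the smallest p that a permutation test can give. Counts over all miRNAs moved by over 1.5 times as follows. Lower calls between day 42 and day 1 were 138, against 78, 91, 58 and 88 with scaling over all names, median scaling, no scaling and the deposited table. Calls between day 14 and day 7 were 101, against 156, 9, 153, 164 and 180 with scaling over all names, normexp, brightness as a covariate, without the dim arrays and also without day 14 number 5, and lower calls 77, against 38 with no scaling and 3 with normexp. Calls between day 42 and day 14 were 105, against 65 with no scaling, 22 with normexp and 63 with the dimmest probe, and lower calls 90, against 57 with quantile normalization, 58 with no scaling, 19 with normexp and 55 with the dimmest probe. Depth is signal over background here, and all members stood above background on all arrays.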
